A study of Mus musculus with 6 samples.

Results

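The 82 single cells of the HPC1 library were compared with the 76 single cells of the double-negative library, out of 497 cells in 6 libraries of sorted mouse haematopoietic stem and progenitor cells. Cells were assigned by the library prefix of their column in the joint expression table, which held 322 cells of 4 libraries, against 324 stated in the study's design text. The HPC1 library mixed 2 gates of haematopoietic progenitor cells (HPC1), one CD201+CD48- and one CD48+, and carried the tissue label spleen. The double-negative library mixed CD201-CD48- cells of 2 populations, HSC1 (haematopoietic stem cells) and HPC1, and carried the label bone marrow. Both came from C57BL/6 mice of 8 to 10 weeks and from polyA RNA, and the labels name no engineered allele and no treatment. The series title speaks of bone marrow only. A cell could be traced to its library but not to its gate, and tissue label, gate and library cannot be told apart. There was 1 library per group, so every difference below is a description of these libraries with no replicate check and no test.

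CD201 is the endothelial protein C receptor, encoded by Procr, and its presence on the cell surface marks the most primitive stem cells. CD48 is a surface protein of the SLAM family that many stem cells lack and that many committed progenitors carry. Neither marker is strict in this series, whose labels include CD48+ HSC1 and CD201+CD48- HPC1 gates. In this compartment some stem cells and multipotent progenitors already transcribe genes of megakaryocytes, the large marrow cells that shed platelets. Platelet genes encode granule proteins such as the chemokine Pf4, receptors that hold platelets to the vessel wall such as the Gp1b-IX-V complex and the integrin Itga2b (CD41), and the secretion machinery of the granules.

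The single-cell libraries came from a modified Smart-seq2 protocol with enrichment of the 3' ends of transcripts. Total counts per cell ran from 3648 to 461611 in HPC1 cells (median 112832) and from 3977 to 566540 in double-negative cells (median 105225), and the library totals were 11475125 and 9885419 counts. Levels are given as counts summed over a library per 1000000 counts (CPM), with exact 95% Poisson intervals where the level carries weight. Shares of cells were taken after each cell had been thinned at random to 10000 counts, which left 81 HPC1 and 75 double-negative cells, with exact 95% Clopper-Pearson intervals. Both intervals cover counting error only, since amplified reads need not be independent molecules and the spread between cells or animals is not in them. Differences are log2 ratios of HPC1 over double-negative with 10 CPM added to each side, so that 1 is 2-fold and positive values are higher in HPC1.

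The genes of the sorting antibodies agreed in direction with the gates. Procr stood at 71.6 CPM (66.8 to 76.7) in HPC1 and 23.9 CPM (20.9 to 27.1) in double-negative cells, and Cd48 at 33.9 CPM (30.6 to 37.4) in HPC1 and 1.62 CPM (0.925 to 2.63) in double-negative cells. After thinning, 30 HPC1 cells held Procr alone, 11 held Cd48 alone, 2 held both and 38 held neither, against 12, 1, 1 and 61 double-negative cells. These genes chose the cells, so their differences are not findings. The sample names do not give the markers that separate HSC1 from HPC1. Differences in Itga2b or other surface genes may therefore also have been set by the sort. Kit, the stem cell factor receptor, was counted in 77 of 82 HPC1 and 73 of 76 double-negative cells before thinning, at 152 CPM in HPC1 and 213 CPM in double-negative cells. Cd3d, a defining gene of T cells, was near 0, at 0 CPM in HPC1 and 0.506 CPM in double-negative cells.

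Of 12226 genes with recovered counts, 251 (2.05%) were at least 2-fold higher in HPC1 and 165 (1.35%) at least 2-fold lower. The median log2 ratio over all these genes was 0.00, and the quartiles were -0.27 and 0.25. The upper tail was longer: 23 genes were at least 4-fold higher and 0 were at least 4-fold lower. Among the highest were the platelet chemokine Pf4, the 4 adult haemoglobin genes and neutrophil genes such as Lcn2 and Camp.

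**Figure D1:**
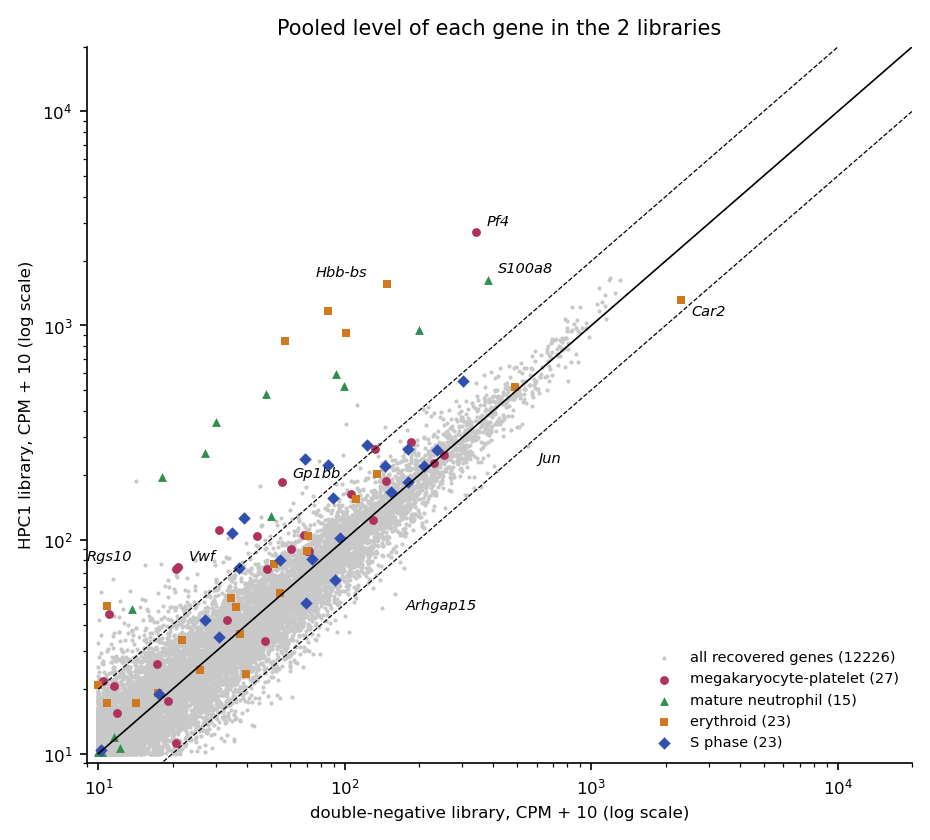
Pooled level of each of the 12226 genes in the HPC1 library (vertical axis) and the double-negative library (horizontal axis), in CPM with 10 added, both on log scales; the solid line marks equal levels and the dashed lines 2-fold differences. Pf4 and the haemoglobin genes stand far above the upper dashed line, 10 of the 15 neutrophil genes lie on or above it, and Car2 is the most abundant labelled gene below the line of equality.

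Platelet genes as a group were higher in the HPC1 library. Of the 30 genes on the megakaryocyte-platelet list 27 had recovered counts, and 9 of these (33.3%) were at least 2-fold higher in HPC1, while 0 were at least 2-fold lower. Their median log2 ratio was 0.60, with 21 above 0 and 6 below. The summed list reached 5178 CPM (5136 to 5220) in HPC1 and 1930 CPM (1903 to 1958) in double-negative cells, and 2469 CPM against 1598 CPM once Pf4 was left out. Over all genes that share was 2.05%. Without the highest cell of each gene 8 members of the list were at least 2-fold higher. These 8 were not all among the 9, since Itga2b and Slc35d3 then fell below 2-fold.

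Promoters of 4 of the 9 higher platelet genes are shown because these genes were higher together. Each runs 5′ to 3′ on the gene's own strand, from 250 bases before to 50 after the start (RefSeq, GRCm38.p6), with capitals for GATAA (the core bound by GATA factors), GGAAG (a core of ETS factors) and TGTGGT (a core of RUNX factors) on either strand. No matched base in these 4 belonged to more than 1 match. The windows are chr5:90772185-90772484 (Pf4, plus strand), chr16:18622354-18622653 (Gp1bb, minus strand), chr11:102469834-102470133 (Itga2b, minus strand) and chr11:17008669-17008968 (Plek, minus strand). Gene positions given below are from GENCODE, which places the start of Itga2b elsewhere than RefSeq. Most of the Itga2b window lies within that GENCODE gene.
Pf4: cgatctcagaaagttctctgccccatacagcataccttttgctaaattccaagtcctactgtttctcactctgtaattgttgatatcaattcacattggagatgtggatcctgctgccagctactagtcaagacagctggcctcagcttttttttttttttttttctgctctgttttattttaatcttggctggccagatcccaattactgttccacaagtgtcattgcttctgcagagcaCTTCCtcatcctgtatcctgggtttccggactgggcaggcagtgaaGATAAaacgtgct
Gp1bb: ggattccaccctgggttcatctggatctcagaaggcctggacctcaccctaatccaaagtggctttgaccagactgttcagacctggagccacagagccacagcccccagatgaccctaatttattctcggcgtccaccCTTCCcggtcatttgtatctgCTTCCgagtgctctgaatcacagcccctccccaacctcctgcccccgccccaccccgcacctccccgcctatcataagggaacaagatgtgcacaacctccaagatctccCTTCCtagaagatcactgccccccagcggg
Itga2b: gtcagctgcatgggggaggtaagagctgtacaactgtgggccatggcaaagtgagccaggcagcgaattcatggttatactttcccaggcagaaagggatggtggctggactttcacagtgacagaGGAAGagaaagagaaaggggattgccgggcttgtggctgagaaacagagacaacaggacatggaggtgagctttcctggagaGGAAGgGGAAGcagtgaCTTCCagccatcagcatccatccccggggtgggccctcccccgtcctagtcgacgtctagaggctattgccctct
Plek: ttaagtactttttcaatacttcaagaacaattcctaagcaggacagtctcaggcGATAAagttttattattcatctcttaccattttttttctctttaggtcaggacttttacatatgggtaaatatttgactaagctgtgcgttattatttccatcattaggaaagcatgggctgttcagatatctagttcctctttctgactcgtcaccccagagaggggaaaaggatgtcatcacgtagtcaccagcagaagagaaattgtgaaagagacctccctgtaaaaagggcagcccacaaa
Pf4 held 1 match to GATAA and 1 to GGAAG, Gp1bb held 3 and Itga2b 4 to GGAAG, Plek held 1 to GATAA, and TGTGGT was absent from all 4 windows. Of the 27 platelet genes 20 matched a promoter in the table. GATAA lay in 10 of these 20 windows (50%) and in 25.4% of all 32851 windows, and GGAAG lay in 17 of 20 (85%) and in 71.4% of all. TGTGGT lay in 2 of 20 (10%) and in 16.8% of all. The list took only the first window of each gene, while the 32851 could hold more than 1 per gene, so these shares are over unlike units. These matches describe letters in a window and say nothing of binding.

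Pf4, the platelet factor 4 chemokine of alpha granules (chromosome 5, 90772435 to 90773383, plus strand, mm10), was the most abundant gene of the list in HPC1. Its level was 2709 CPM (2679 to 2740) in HPC1 and 332 CPM (321 to 344) in double-negative cells, a log2 ratio of 2.99. Per cell it ran from 182 to 15934 CPM (median 637) in HPC1 and from 0 to 5843 CPM (median 97.1) in double-negative cells. All 82 HPC1 cells exceeded the double-negative median, 9 exceeded the highest double-negative cell, and the 2 groups of cells overlapped. A level of 1000 CPM or more was reached by 26 HPC1 and 3 double-negative cells. Pf4 was counted in all 82 HPC1 cells, with at least 14 counts in each, and in 70 double-negative cells. A low count of Pf4 in every cell is not read as expression in every cell. Neighbouring Ppbp, another platelet chemokine gene on chromosome 5, stood at only 1.22 CPM in HPC1 and 10.7 CPM in double-negative cells.

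Receptors and adhesion proteins of the platelet surface differed by unequal amounts. Gp1bb, the beta chain of glycoprotein Ib (chromosome 16, 18620317 to 18622403), had 175 CPM (167 to 183) in HPC1 and 45.5 CPM (41.4 to 49.9) in double-negative cells, with a log2 ratio of 1.73. It was counted in 39.5% of thinned HPC1 cells (28.8 to 51) and 14.7% of double-negative cells (7.56 to 24.7), and before thinning in 66 HPC1 and 26 double-negative cells. In the annotation Gp1bb overlaps Sept5 on the same strand, and the reads of this pair may not be told apart. Vwf, the von Willebrand factor that bridges this receptor to collagen (chromosome 6, 125546774 to 125686679), had 64.3 CPM (59.8 to 69.1) in HPC1 and 11.1 CPM (9.15 to 13.4) in double-negative cells. It was counted in 35.8% of thinned HPC1 cells (25.4 to 47.2) and 6.67% of double-negative cells (2.2 to 14.9), and before thinning in 63 HPC1 and 18 double-negative cells. Of the partners of Gp1bb in the complex, Gp9 had 277 CPM in HPC1 and 175 CPM in double-negative cells, Gp5 95.4 CPM in HPC1 and 58 CPM in double-negative cells, both with log2 ratios of 0.63. Itga2b (chromosome 11, 102453297 to 102470122), the alpha chain of the fibrinogen receptor, had 255 CPM (246 to 264) in HPC1 and 122 CPM (115 to 129) in double-negative cells. Itga2b only just reached 2-fold, and was below it, at a log2 ratio of 0.92, without the highest cell of each library. Its per-cell medians were 100 CPM in HPC1 and 90.8 CPM in double-negative cells, while the upper quartiles were 275 CPM in HPC1 and 158 CPM in double-negative cells.

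**Figure D2:**
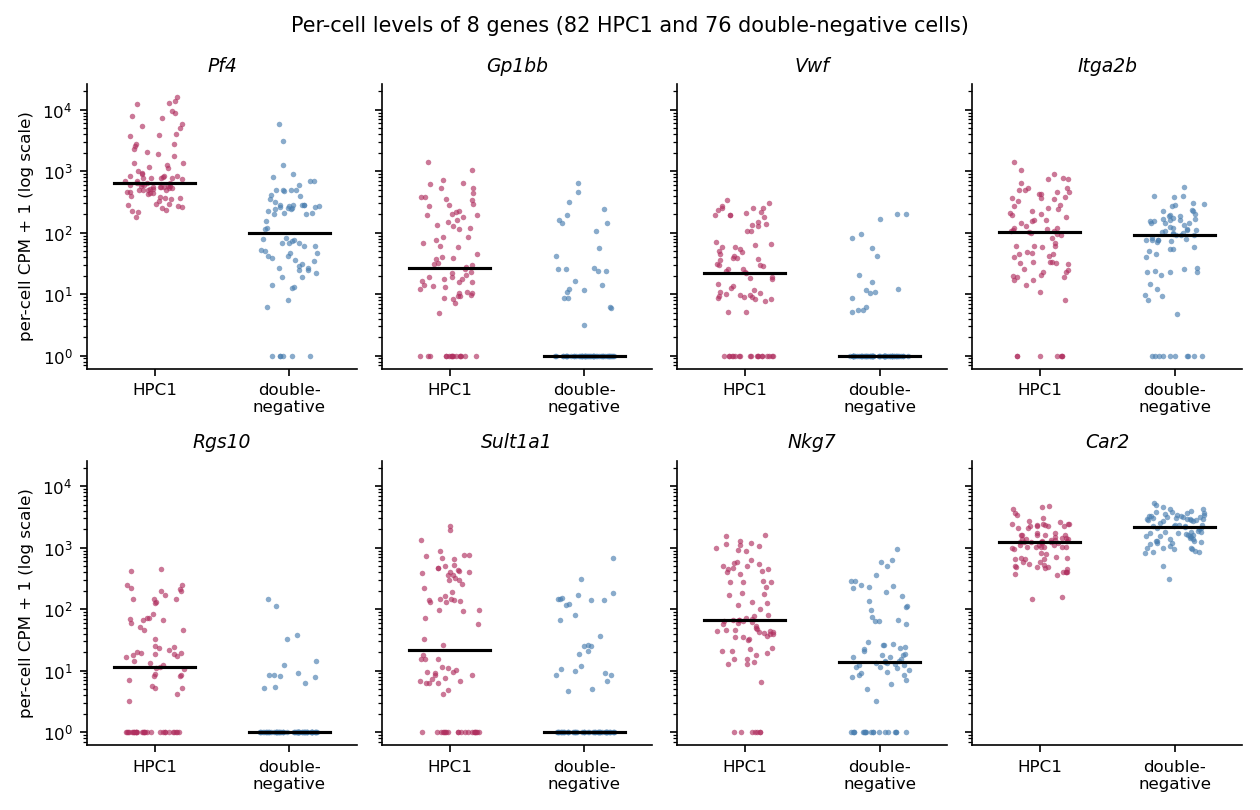
Per-cell levels of 8 genes in the 82 HPC1 cells (left in each panel) and the 76 double-negative cells (right), as CPM with 1 added on a log scale, so that cells without a count lie at 1; each point is a cell and bars are medians. Every HPC1 cell lies at or above 182 CPM for Pf4, the cells of the 2 libraries overlap in all 8 panels, and Car2 is the gene that is lower in HPC1.

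The other 2-fold higher members included genes of granules and a receptor. Plek (pleckstrin, a substrate of protein kinase C in platelets) had 101 CPM (95.6 to 107) in HPC1 and 20.8 CPM (18.1 to 23.9) in double-negative cells. Rab27b, a small GTPase of granule release, had 93.7 CPM in HPC1 and 33.9 CPM in double-negative cells. Serpine2, the protease nexin carried by platelets, had 35.1 CPM in HPC1 and 1.01 CPM in double-negative cells, and was counted in 28 HPC1 and 7 double-negative cells before thinning. F2rl2, a thrombin receptor whose gene lies within Iqgap2 on the other strand, had 62.5 CPM in HPC1 and 10.6 CPM in double-negative cells. Their log2 ratios lay between 1.24 (Rab27b) and 2.03 (Serpine2). Slc35d3, a gene of platelet dense granules, completed the 9 genes with 11.8 CPM in HPC1 and 0.405 CPM in double-negative cells, and its log2 ratio was 0.87, below 2-fold, without the highest cells.

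Among transcription factors of the list, Nfe2, a factor of platelet production, had 239 CPM in HPC1 and 243 CPM in double-negative cells. Gata1 had 78.4 CPM in HPC1 and 60.5 CPM in double-negative cells, its partner Zfpm1 80 CPM in HPC1 and 50.5 CPM in double-negative cells, and Fli1 177 CPM in HPC1 and 137 CPM in double-negative cells, with log2 ratios from 0.33 to 0.57. None of these 4 genes reached 2-fold.

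Across the 82 HPC1 cells, Pf4 varied together with some of these genes. Spearman's correlation of per-cell CPM with Pf4 was 0.46 for Itga2b, 0.45 for Plek, 0.41 for Serpine2 and 0.41 for Cavin2, a caveola protein of platelets. In the 76 double-negative cells the same pairs gave 0.14, 0.11, -0.08 and 0.11. The correlation of Pf4 with Gp1bb was 0.36 in HPC1 and 0.32 in double-negative cells, and with Gp9 it was 0.09 in HPC1 and 0.24 in double-negative cells. In HPC1 it was 0.27 for Gp5, 0.22 for Vwf, 0.17 for Treml1 and F2rl2, and 0.12 for Rab27b, and in double-negative cells 0.12 for Gp5, 0.13 for Vwf, 0.09 for Treml1, -0.10 for F2rl2 and 0.08 for Rab27b. In all 32 gene pairs were computed, and the cells share a library. Pf4 in HPC1 also had correlations with genes of other lineages: 0.28 with Hbb-bs, 0.32 with S100a8 and 0.39 with Nkg7, a gene of cytotoxic and myeloid cells. In double-negative cells these were 0.03, -0.08 and 0.05. The HPC1 value for Nkg7 was above that for Gp1bb.

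Outside the platelet list, 3 of the 12 highest genes that passed the rule for naming belonged to neither red cells nor neutrophils. Rgs10, a regulator that shortens G protein signals (chromosome 7, 128373621 to 128418758), had 65.8 CPM (61.2 to 70.7) in HPC1 and 5.46 CPM (4.1 to 7.13) in double-negative cells, a log2 ratio of 2.29. It was counted in 27.2% of thinned HPC1 cells (17.9 to 38.2) and 2.67% of double-negative cells (0.325 to 9.3), before thinning in 53 HPC1 and 14 double-negative cells, and its correlation with Pf4 was 0.43 in HPC1. Sult1a1, a sulfotransferase on the stem cell list (chromosome 7, 126672865 to 126676432), had 168 CPM (161 to 176) in HPC1 and 35.2 CPM (31.6 to 39.1) in double-negative cells. The median HPC1 cell held 21 CPM of Sult1a1 and the upper quartile 319 CPM, against 0 and 12.6 CPM in double-negative cells. Within HPC1, Sult1a1 went with Procr (correlation 0.52) and against Pf4 (correlation -0.31), the opposite of the sign that the platelet genes had with Pf4. The correlation of Sult1a1 with Cd48 was -0.22. Procr and Cd48 encode the antigens of the 2 gates mixed in this library. A relation with either gene over these cells cannot be told apart from the gate of a cell. Sult1a1 overlaps Sgf29 on the other strand. Hist1h2ae, a replication-dependent histone H2A gene, had 413 CPM in HPC1 and 102 CPM in double-negative cells. Reads of Hist1h2ae may be shared with near-identical histone genes, and the level is uncertain to that extent.

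Haemoglobin and neutrophil granule transcripts made up most of the remaining top genes, and 2 patterns were present in them. The first was a low level in nearly every HPC1 cell. Hbb-bs, an adult beta-globin gene, was counted in all 82 HPC1 cells, with at least 12 counts in each, and in 66 of 76 double-negative cells. Per cell it ran from 133 to 42827 CPM (median 680) in HPC1 and from 0 to 2044 CPM (median 43.4) in double-negative cells. S100a8, an abundant calcium-binding protein of neutrophils, was likewise counted in all 82 HPC1 cells, with at least 13 counts in each, and in 68 double-negative cells, and its per-cell medians were 675 CPM in HPC1 and 44.2 CPM in double-negative cells. All 4 haemoglobin genes were counted together in 82 of 82 HPC1 and 28 of 76 double-negative cells. The near-identical pairs Hba-a1 and Hba-a2, and Hbb-bs and Hbb-bt, may share reads.

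The second pattern was 1 or a few cells with very high levels. In 1 HPC1 cell the haemoglobin genes made up 13.9% of 237325 counts, together with 105 counts of Slc4a1 (the band 3 anion exchanger of red cells). In another HPC1 cell the neutrophil list made up 12.2% of 358187 counts, and in 1 double-negative cell it made up 12.3% of 41405 counts. Single cells held much of some genes: the highest HPC1 cell held 83.3% of the Camp and 88.8% of the Lcn2 counts of its library, the highest double-negative cell 75.7% and 67.5%. Without the highest cells the log2 ratio was 1.88 for Camp (2.70 with them), 1.51 for Lcn2 (3.31 with them), 2.22 for Hba-a2 (3.89 with them) and 2.70 for Hba-a1 (3.77 with them). Without the deepest 10% of cells it was 0.10 for Camp, 0.18 for Lcn2, 0.29 for S100a9 and 1.16 for S100a8, while the 4 haemoglobin genes lay between 3.47 and 4.06. Cells in which either set reached 1% of counts numbered 5 in HPC1 and 1 in the double-negative library. Without them, 6 of 15 neutrophil genes were at least 2-fold higher in HPC1, and 239 of all 12226 genes. With all cells it was 10 of 15 neutrophil genes (66.7%, against 2.05% of all genes). The median log2 ratio of the list was 0.73 without these cells, against 2.11. The summed neutrophil list was 1238 CPM in HPC1 and 347 CPM in double-negative cells without these cells, against 5060 CPM in HPC1 and 861 CPM in double-negative cells with all cells. Per cell the list ran from 435 to 122040 CPM in HPC1 and from 0 to 123077 CPM in double-negative cells. Hbb-bs was still higher, at 650 CPM in HPC1 and 138 CPM in double-negative cells. Of the 23 erythroid genes 6 (26.1%, against 2.05% of all genes) were at least 2-fold higher, and without the rich cells 4, which were the 4 haemoglobin genes. The erythroid median was 0.55 with all cells and 0.11 without the rich cells. Without them Slc4a1 had 1.86 CPM in HPC1 and no count in double-negative cells.

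**Figure D3:**
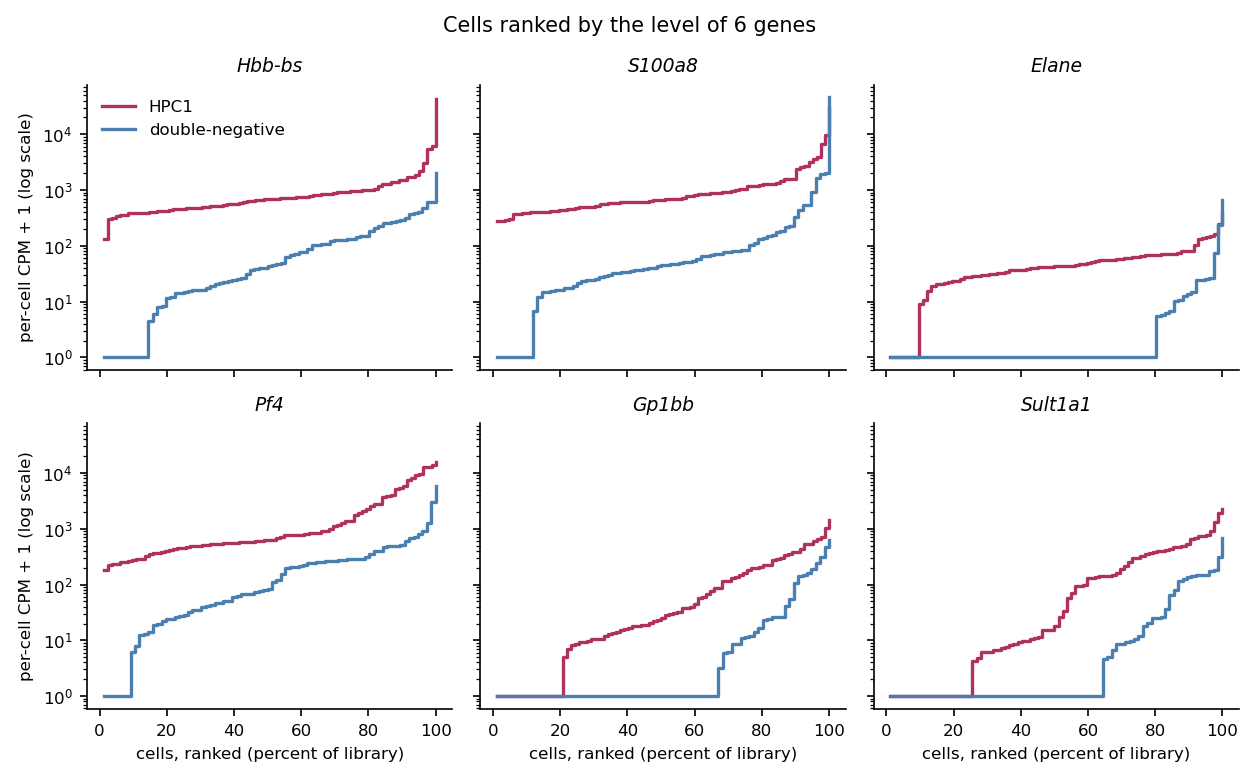
Cells of each library ranked by their level of 6 genes (horizontal axis, percent of the 82 HPC1 or 76 double-negative cells), with per-cell CPM plus 1 on a log scale. The HPC1 lines of Hbb-bs, S100a8 and Elane change little through most cells, that of Pf4 is flat to beyond its median of 637 CPM and then climbs, and those of Gp1bb and Sult1a1 climb throughout.

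Within HPC1 these transcripts varied together across lineages. Spearman's correlation of Hbb-bs was 0.63 with S100a8 and 0.65 with S100a9, both neutrophil genes, and S100a8 had a correlation of 0.49 with Elane, over 82 cells. In the double-negative library the values were 0.19, 0.10 and 0.20 over 76 cells. In HPC1 their per-cell CPM was lower in deeper cells, with correlations to the total count of -0.42 for Hbb-bs and -0.43 for S100a8, against 0.32 for Gp1bb and 0.22 for Rgs10. For Pf4 it was -0.18. The part that these relations with depth and with other lineages have in the library difference of Hbb-bs, S100a8 and Pf4 was not tested.

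Of the granulocyte-monocyte progenitor list, 5 of 20 genes (25%, against 2.05% of all genes) were at least 2-fold higher in HPC1 and 0 at least 2-fold lower, with a median log2 ratio of 0.35. Without the highest cell of each gene the median was 0.16, with 5 genes at least 2-fold higher and 1 at least 2-fold lower. Without the rich cells the median was also 0.16. Nkg7, a granule membrane protein of cytotoxic and myeloid cells, had 337 CPM (326 to 347) in HPC1 and 91.3 CPM (85.5 to 97.5) in double-negative cells, and reached 1000 CPM in 7 HPC1 and 0 double-negative cells. In HPC1, Nkg7 went against Procr (correlation -0.48) and with Cd48 (correlation 0.33), which cannot be told apart from the 2 gates of the library. Ms4a3, a marker of granulocyte-monocyte progenitors, had 56.6 CPM in HPC1 and 10.8 CPM in double-negative cells, and Cst7, a cystatin, 26.7 CPM in HPC1 and 3.24 CPM in double-negative cells. Elane and Mpo, of the azurophil granules, were spread over most HPC1 cells. Elane (neutrophil elastase) had 47.1 CPM in HPC1 and 10.4 CPM in double-negative cells, was counted in 75 HPC1 and 16 double-negative cells before thinning, and its HPC1 quartiles were 27.8 and 63.3 CPM. Mpo (myeloperoxidase) had 48.2 CPM in HPC1 and 14.8 CPM in double-negative cells, with HPC1 quartiles of 28.9 and 69.4 CPM. The related protease Prtn3 had 348 CPM in HPC1 and 294 CPM in double-negative cells, a log2 ratio of 0.23. The lineage factor Spi1 had 120 CPM in HPC1 and 119 CPM in double-negative cells, and Cebpa 3.05 CPM in HPC1 and 1.42 CPM in double-negative cells.

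DNA replication genes were more abundant in HPC1. Of the 23 S phase genes 21 had a log2 ratio above 0, 5 (21.7%, against 2.05% of all genes) were at least 2-fold higher and 0 at least 2-fold lower, and the median was 0.56. The 5 were Pclaf (a PCNA-binding factor, 227 CPM in HPC1 and 58.8 CPM in double-negative cells), Rrm2 (the small subunit of ribonucleotide reductase, 115 CPM in HPC1 and 29 CPM in double-negative cells), Uhrf1 (which guides maintenance methylation, 97.7 CPM in HPC1 and 24.9 CPM in double-negative cells), Hells (a chromatin remodeller, 213 CPM in HPC1 and 75.2 CPM in double-negative cells) and Tyms (thymidylate synthase, 266 CPM in HPC1 and 113 CPM in double-negative cells). The replicative helicase differed less, with log2 ratios of 0.61 for Mcm2 and from 0.03 to 0.15 for Mcm3, Mcm4, Mcm5, Mcm6 and Mcm7. Tyms was counted in 51.9% of thinned HPC1 cells (40.5 to 63.1) and 32% of double-negative cells (21.7 to 43.8), whose intervals overlap, and before thinning in 72 HPC1 and 60 double-negative cells. Pclaf was counted in 34.6% of thinned HPC1 cells (24.3 to 46) and 10.7% of double-negative cells (4.72 to 19.9), and before thinning in 59 HPC1 and 34 double-negative cells.

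The summed S phase list per cell ran from 221 to 8396 CPM in HPC1 (quartiles 781 and 4712, median 1680) and from 216 to 8151 CPM in double-negative cells (quartiles 672 and 1948, median 991). The lowest and highest cells were thus alike, and the upper quartile differed most. Of the mitotic genes 0 of 22 were at least 2-fold higher or lower, and the median log2 ratio was 0.39. Mki67, the Ki-67 antigen, had 199 CPM in HPC1 and 135 CPM in double-negative cells, and Top2a, which untangles DNA, 385 CPM in HPC1 and 204 CPM in double-negative cells. Per cell the summed G2/M list had medians of 587 CPM in HPC1 and 346 CPM in double-negative cells, but the highest cell was a double-negative one (13901 CPM in HPC1, 17398 CPM in double-negative cells). The order of the S phase and G2/M medians was not stable: without the highest cell of each gene they were 0.61 for S phase and 0.66 for G2/M, with log values averaged 0.51 and 0.55, and as a mean of per-cell CPM 0.34 and 0.33.

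**Figure D4:**
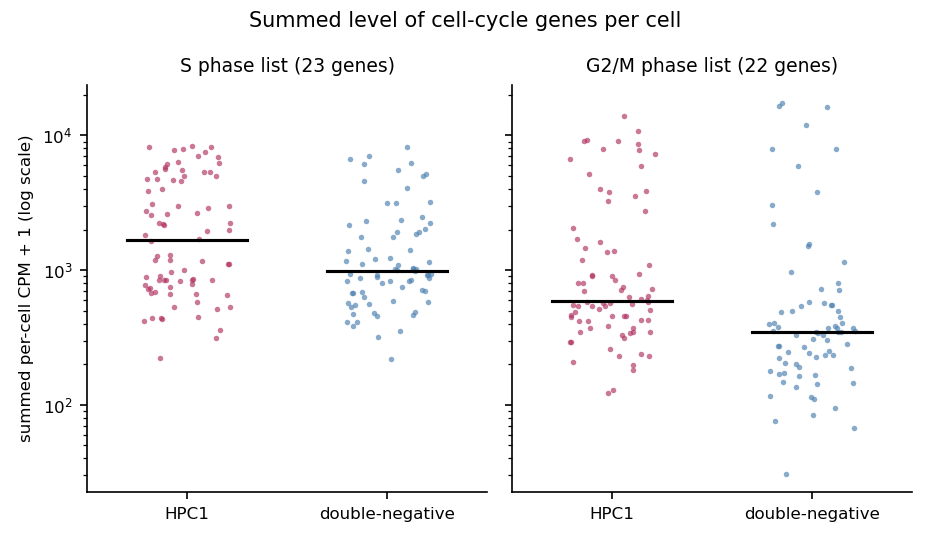
Summed level of the S phase list and of the G2/M list in each of the 82 HPC1 cells (left in each panel) and 76 double-negative cells (right), as CPM plus 1 on a log scale, with bars at the medians. More HPC1 cells lie in the upper band of S phase levels (medians 1680 CPM in HPC1 and 991 CPM in double-negative cells), while the highest G2/M cells are found in both libraries.

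Stem cell genes as a list differed in both directions, with 10 members above 0 and 19 below. Of 29 recovered members 3 were at least 2-fold higher in HPC1, namely Sult1a1, Procr and Ramp2 (a receptor-modifying protein, 11.3 CPM in HPC1 and 0.202 CPM, 0.0245 to 0.731, in double-negative cells), 1 was at least 2-fold lower, namely Ctnnal1 (an alpha-catenin relative, 14.4 CPM in HPC1 and 42.7 CPM in double-negative cells), and the median was -0.13. Procr encodes a sorting antigen, so its place in this count is set by the gates. The shares at 2-fold were 10.3% higher and 3.45% lower, against 2.05% and 1.35% of all genes. The median had the opposite sign, 0.16, as a mean of per-cell CPM. Ramp2 and Ctnnal1 were under 2-fold without their highest cells, at 0.74 and -0.74. Stem cell transcription factors were lower in HPC1 by less than 2-fold: Mecom had 86.2 CPM in HPC1 and 142 CPM in double-negative cells, Hoxa9 57.6 CPM in HPC1 and 104 CPM in double-negative cells, and Hlf 132 CPM in HPC1 and 170 CPM in double-negative cells. Mllt3, Meis1 and Gata2 had log2 ratios between -0.31 and -0.19, and Pdzk1ip1, Myct1 and Ly6a (the Sca-1 gene) between -0.10 and -0.01.

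The 18 other surface proteins of progenitors had a median of 0.03, with 9 above 0 and 8 below. At least 2-fold higher was 1 (5.56%, against 2.05% of all genes), Itga2b, and 0 were at least 2-fold lower. The members differed in both directions. Cd27, a receptor of the tumour necrosis factor family, had 151 CPM (144 to 159) in HPC1 and 296 CPM (285 to 307) in double-negative cells, and per-cell medians of 103 CPM in HPC1 and 222 CPM in double-negative cells. Cd34, a sialomucin used to sort progenitors, had 83.4 CPM (78.2 to 88.9) in HPC1 and 151 CPM (144 to 159) in double-negative cells, and was counted in 45.7% of thinned HPC1 cells (34.6 to 57.1) and 65.3% of double-negative cells (53.5 to 76), before thinning in 67 HPC1 and 70 double-negative cells. Their log2 ratios were -0.92 and -0.79. Cd9, a tetraspanin of stem cells and platelets, ran the other way at 0.64, with 433 CPM in HPC1 and 273 CPM in double-negative cells. Flt3, the receptor of early lymphoid and multipotent progenitors, was low in both libraries, at 5.84 CPM in HPC1 and 15 CPM in double-negative cells.

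The lymphoid progenitor list leaned towards the double-negative library, with 10 of 14 members below 0, 2 above, a median of -0.32 and 1 member (7.14%, against 1.35% of all genes) at least 2-fold lower. That member was Sox4, a transcription factor of early lymphocytes, at 23.8 CPM in HPC1 and 66.7 CPM in double-negative cells. Il7r and Rag2, defining genes of committed lymphoid cells, had no count in either library. Plac8, a small protein of myeloid and lymphoid progenitors, belongs to the granulocyte-monocyte list and not to this one. It had 198 CPM in HPC1 and 403 CPM in double-negative cells, a log2 ratio of -0.99. Car2, carbonic anhydrase 2, a member of the erythroid list with a log2 ratio of -0.81, was the most abundant of the genes described here as lower. It had 1308 CPM (1287 to 1329) in HPC1 and 2299 CPM (2269 to 2329) in double-negative cells. Car2 was counted in every cell of both libraries, from 146 to 4867 CPM (median 1248) in HPC1 and from 307 to 5355 CPM (median 2151) in double-negative cells, and 61 of 76 double-negative cells lay above the HPC1 median.

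The 12 lowest genes that passed the rule for naming were of mixed function, and none of the 12 lay on a lineage list. Arhgap15, a GTPase-activating protein for Rac (chromosome 2, 43748824 to 44395953), had 45.9 CPM (42.1 to 50) in HPC1 and 150 CPM (142 to 158) in double-negative cells, a log2 ratio of -1.52. It was counted in 29.6% of thinned HPC1 cells (20 to 40.8) and 58.7% of double-negative cells (46.7 to 69.9), before thinning in 56 HPC1 and 67 double-negative cells, and its per-cell medians were 13.4 CPM in HPC1 and 83.6 CPM in double-negative cells. Zfp950, a zinc finger gene that overlaps Grk5 on the other strand, had 37.9 CPM in HPC1 and 132 CPM in double-negative cells. It was counted in 25.9% of thinned HPC1 cells (16.8 to 36.9) and 38.7% of double-negative cells (27.6 to 50.6), whose intervals overlap, and before thinning in 53 HPC1 and 57 double-negative cells. Phlda2, an imprinted gene with a pleckstrin homology domain, had 26.9 CPM in HPC1 and 93.6 CPM in double-negative cells, and Sox6, a transcription factor known from red cell maturation, 26.9 CPM in HPC1 and 82.8 CPM in double-negative cells. The other 8 were Atg12 (autophagy), Upp1 (uridine phosphorylase), Mtmr14 (a phosphoinositide phosphatase), Rdh11 (retinol dehydrogenase), Trmt13 (a tRNA methyltransferase), Dock8 (a guanine nucleotide exchange factor), Ncbp1 (cap binding) and Insr (the insulin receptor). Their log2 ratios lay between -1.44 and -1.18, and their levels between 14.3 and 33.9 CPM in HPC1 and between 50 and 90.2 CPM in double-negative cells. Phlda2 and Impact, at 41 CPM in HPC1 and 99.2 CPM in double-negative cells, were the 2 of 11 imprinted growth genes (18.2%, against 1.35% of all genes) that were at least 2-fold lower. Impact was just under 2-fold, at -0.99, without its highest cells. The list median was 0.05.

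Immediate early genes were split. Jun had 264 CPM (254 to 273) in HPC1 and 544 CPM (529 to 558) in double-negative cells, and Egr1 43.4 CPM in HPC1 and 101 CPM in double-negative cells, with log2 ratios of -1.02 and -1.05. Both were near the 2-fold line, as Jun was at -0.97 without the rich cells and Egr1 at -0.88 without its highest cells. Nr4a1, an orphan nuclear receptor of the same response, went the other way, with 28.9 CPM in HPC1 and 7.69 CPM in double-negative cells and a log2 ratio of 1.14. Fos, at 249 CPM in HPC1 and 311 CPM in double-negative cells, and Ier2, at 320 CPM in HPC1 and 319 CPM in double-negative cells, were under 2-fold, so the 15 genes had a median of -0.03. Among cell-cycle inhibitors the antiproliferative pair Btg1 and Btg2 also parted: Btg1 had 21.4 CPM in HPC1 and 55.8 CPM in double-negative cells, and Btg2 61.5 CPM in HPC1 and 23.5 CPM in double-negative cells. Cdkn1a, the inhibitor p21, had 28.4 CPM in HPC1 and 7.38 CPM in double-negative cells. These were the 3 of 20 inhibitor genes at 2-fold (10% higher and 5% lower, against 2.05% and 1.35% of all genes). Without their highest cells Btg1 was at -0.95 and Cdkn1a at 0.80.

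Of 9 antigen presentation genes of class II, 6 were above 0 and 3 below, with a median of 0.48. At least 2-fold higher were 2 (22.2%, against 2.05% of all genes), and 0 were at least 2-fold lower. Cd74, the invariant chain, had 67.3 CPM (62.6 to 72.2) in HPC1 and 7.99 CPM (6.33 to 9.96) in double-negative cells, and H2-Eb1 47.3 CPM in HPC1 and 13.2 CPM in double-negative cells. Cd74 was counted in 18 of 81 thinned HPC1 cells and 5 of 75 double-negative cells (before thinning in 44 HPC1 and 21 double-negative cells), with a highest cell of 1690 CPM in HPC1 and 134 CPM in double-negative cells. Of the macrophage-monocyte genes 2 of 17 (11.8%, against 2.05% of all genes) were at least 2-fold higher (1 of 17 without the highest cells), namely Ly6c2 (28.6 CPM in HPC1 and 4.25 CPM in double-negative cells) and Vcam1 (11.6 CPM in HPC1 and 0.506 CPM in double-negative cells). Ly6c2 was spread evenly, with a count in 65 HPC1 and 6 double-negative cells before thinning. Vcam1 was at 0.51 without its highest cells. The summed list stood at 146 CPM in HPC1 and 91.1 CPM in double-negative cells, per cell from 0 to 5968 CPM in HPC1 and from 0 to 2091 CPM in double-negative cells. Ccr2 and Timd4 had no count in double-negative cells. The part of macrophage genes in the class II difference was not tested.

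In the remaining lists few members reached 2-fold. In the interferon list 1 of 21 genes (4.76%, against 2.05% of all genes) was at least 2-fold higher and 0 lower. This was Ifit3, with 25.4 CPM in HPC1 and 1.42 CPM in double-negative cells, and a log2 ratio of 0.48 without its highest cell. Ifi27 stood out in the other direction with 194 CPM in HPC1 and 369 CPM in double-negative cells. Among T and NK cell genes 1 of 7 was at least 2-fold higher (Nkg7, also on the granulocyte-monocyte list) and 1 lower (Lck, a T cell kinase, 4.53 CPM in HPC1 and 22.5 CPM in double-negative cells). Each is 14.3% of the list, against 2.05% of all genes higher and 1.35% lower. In the respiratory chain list 0 of 19 genes reached 2-fold, yet 14 were above 0 and the median was 0.25. Glycolysis (14 genes), ribosome biogenesis (21 genes), heat shock (13 genes), endothelial and stromal (11 genes), mast cell (7 genes) and mature B cell genes (8 genes) had 0 members at 2-fold in either direction and medians from -0.08 to 0.01. All 7 mast cell genes were below 0. They summed to 6.71 CPM (5.3 to 8.39) in HPC1 and 20.1 CPM (17.4 to 23.1) in double-negative cells. At such low levels the 10 CPM added to each side leaves little room for a 2-fold call.

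**Figure D5:**
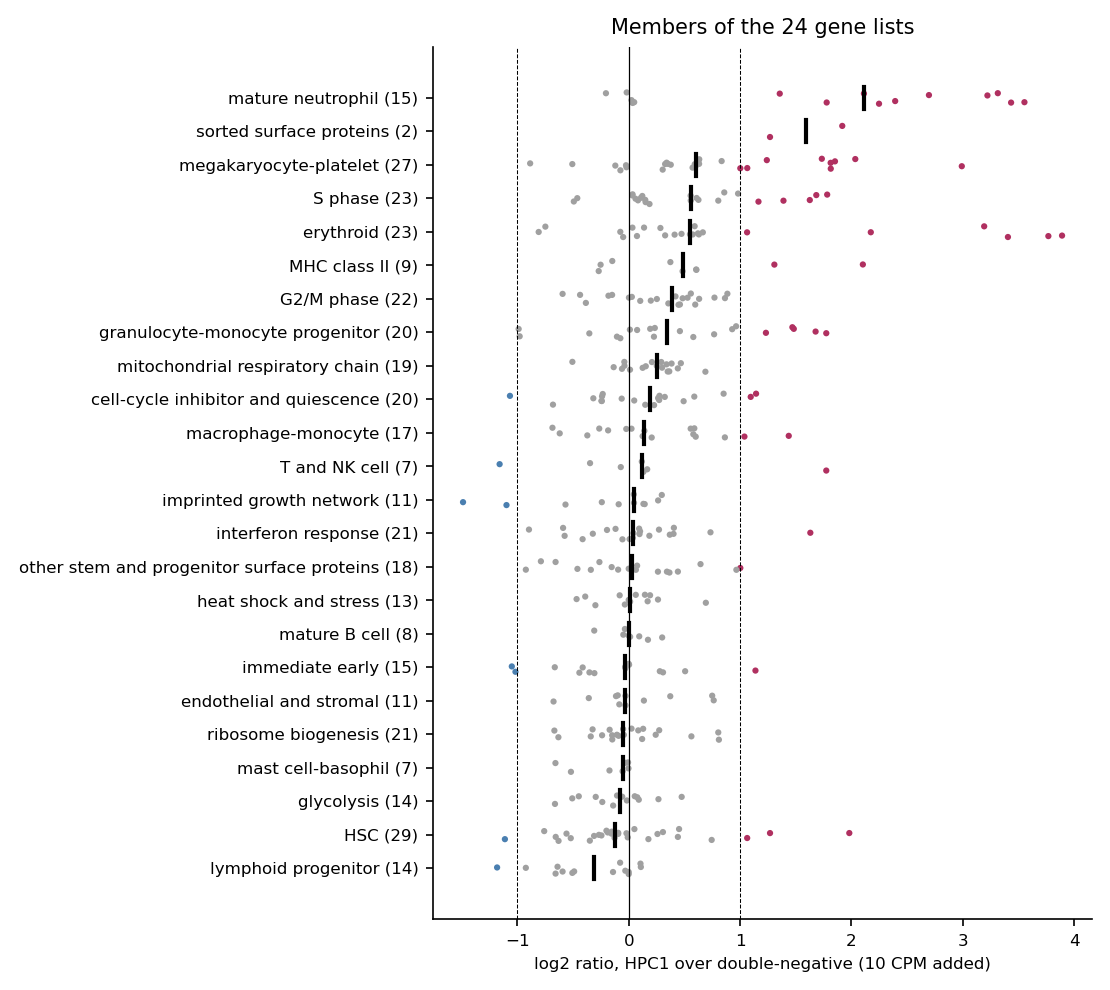
Log2 ratio of HPC1 over double-negative for each recovered member of the 24 gene lists (number of members in brackets), ordered by the list's median, which is the black bar; dashed lines mark 2-fold. The neutrophil list (median 2.11), the platelet list (0.60), the S phase list (0.56) and the erythroid list (0.55) lie to the right, and the lymphoid progenitor list (-0.32) lies farthest to the left.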

How the data were processed

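The deposited values are scores that the authors made per gene and cell, centred and scaled to unit SD over the cells of all tables, with a ceiling of 10 that 0.0762% of values reached. The submitters' processing notes name TopHat, HTSeq and mm10; no versions, annotation or cell filter were found in the labels. Counts were recovered from the scores: in the deposited values, cells lacking a gene form a plane set by 3 regressed covariates, and 10000 per cell was taken as the scale. Of 13278 genes, 12226 were recovered, 157 abundant ones had no plane and 895 had too few detecting cells (at least 4 were needed). Among 2003203 values up to 50, 100.0000% were whole within 0.01. The scale of each gene was chosen to make its values whole, and only genes where this held were kept. A high share was therefore fixed in advance. Recovered genes held 56.6 to 81.7% of a cell's total, and CPM use the whole total. In the 2 libraries 106 values in 72 genes are lower bounds. The recovery was tested on simulated data scaled by the same model, which checks the computation but not the model.

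By rule, genes were named from each end of the log2 ratio, 12 higher and 12 lower, if counted in at least 25% of thinned cells of the library where they were higher, with that share differing the same way and the ratio at least 2-fold without each library's highest cell. Predicted, mitochondrial and ribosomal protein symbols were left out, and members of the 24 lists could be named too. The libraries, lists and rule were chosen with earlier results of these data known. Cells were neither clustered nor filtered, and doublets were not called. Gene positions are from GENCODE M21. Python 3.11.15, numpy 2.4.6, scipy 1.17.1 and pandas 2.3.3 were used. Some members of the lists are counted in list totals but not reported here by name.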

Additional observations from a re-analysis of the deposited data

How the results depend on the processing

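The number of genes at least 2-fold higher and lower depended on the scale. It was 1353 higher and 1114 lower with 1 CPM added, 28 and 2 with 50 CPM added, and 66 and 10 when log values were averaged over cells, against 251 and 165. The lower count was 103 as a mean of per-cell CPM and 101 with the highest cell of each gene left out. The median of the 2 sorted surface proteins was 2.64 with 1 CPM, 0.71 with 50 CPM and 0.86 with log values averaged, against 1.59. The neutrophil median of 2.11 was 0.41 as a mean of per-cell CPM, 0.83 with log values averaged, 0.77 with the highest cell of each gene left out, 0.04 without the deepest 10% of cells, and 0.73 without cells rich in neutrophil or haemoglobin genes. The T and NK cell median of 0.12 was 0.83 with 1 CPM added. Beyond the part that the construction fixes (smaller or larger amounts added, fewer cells), the cause was not tested. The other list medians moved by less than 1.5-fold, but the HSC median of -0.13 was 0.16 as a mean of per-cell CPM, 0.04 with log values averaged, 0.03 without the deepest 10% of cells and 0.08 as a difference of deposited scores. The platelet median lay between 0.29 and 0.70 and the S phase median between 0.29 and 0.61 over the log2 alternatives. All 24 named genes kept their direction under the 11 alternatives, which was largely fixed in advance. A different added amount cannot change a sign, and leaving out other genes returns the same ratio. The naming rule itself required 2-fold without the highest cells. The size moved by over 1.5-fold for 10 with 50 CPM added, 8 with log values averaged, 6 each as a mean of per-cell CPM, with the highest cells left out and without the rich cells, 4 without the deepest 10% of cells and 1 with 1 CPM added. No paired analysis was possible because each group is 1 library. Depth limits low genes: a count of 0 allows up to 0.261 CPM in HPC1 and 0.303 CPM in the double-negative library, for counting error only.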

Other observations

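For 157 genes found in nearly every cell only the deposited scores could be used. Their median difference of mean scores, HPC1 minus double-negative, was -0.05, with 63 above 0 and 94 below, against 0.01 over all 13278 genes. The largest difference was in mt-Cytb, the mitochondrial cytochrome b gene, with a mean score of 0.84 ± 0.62 in HPC1 (SD over 82 cells) and 0.04 ± 0.80 in double-negative cells (SD over 76 cells). Pfn1, an actin-binding profilin, had 0.55 ± 0.99 in HPC1 and -0.17 ± 0.70 in double-negative cells. On the lower side mt-Co1, a subunit of cytochrome oxidase, had -0.43 ± 0.80 in HPC1 and 0.20 ± 0.76 in double-negative cells. The scores of the mitochondrial genes thus differed in both directions. As 3 cell covariates had been removed from the scores, they cannot show whether these genes shared a shift that went with a covariate. Of 7 mitochondrial genes 3 were above 0, with a median of -0.05, and of 75 ribosomal protein genes 26 were above 0, with a median of -0.06.

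Of 56 histone genes with recovered counts, a set chosen after the values were seen, 34 were above 0, 3 at least 2-fold higher and 1 at least 2-fold lower in HPC1, with a median log2 ratio of 0.06. Over all genes 2.05% were at least 2-fold higher and 1.35% at least 2-fold lower. Beside Hist1h2ae the higher genes were Hist1h2bj, with 37.2 CPM in HPC1 and 2.53 CPM in double-negative cells, and Hist1h2ai, with 28.4 CPM in HPC1 and 5.56 CPM in double-negative cells. The lower one was Hist1h2bc, with 54.7 CPM in HPC1 and 129 CPM in double-negative cells. Reads of near-identical histone copies were not told apart here.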
